A study of Mus musculus with 2 samples.

Results

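The TGF-beta isoforms Tgfb1, Tgfb2 and Tgfb3, the latent TGF-beta binding proteins Ltbp1, Ltbp2, Ltbp3 and Ltbp4, and the activator Thbs1 were described in single cells of mouse ovarian tumors. These 8 genes were taken by symbol from the 32285 genes of the count tables, and each symbol had 1 row. All 8 were detected in both libraries. The tumors grew from KPCA, a mouse ovarian cancer line derived from fallopian tube epithelium that carries engineered oncogenic alleles and overexpresses Ccne1 and Akt2. In both groups the grafted line also carried a knockout of Fst, the activin antagonist follistatin. The KPCA.FSTKO line had no further change, and the KPCA.FSTKO_hFSTL3 line also overexpressed human FSTL3, a follistatin-like antagonist of activins. The lines were grafted into the peritoneal cavity of C57BL/6 mice, whose own cells kept their Fst and supplied the stroma, and omental tumors were taken at day 10. Cells of 4 tumors were pooled for each genotype and gave 1 single-cell library per genotype, so library and genotype cannot be told apart and no test between genotypes was possible. The comparison asked how FSTL3 overexpression in the cancer cells altered the surrounding tumor tissue.

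TGF-beta is secreted as a latent dimer, held inactive by its own propeptide. A latent TGF-beta binding protein can be disulfide-linked to this propeptide and anchors the complex to fibrillin and fibronectin fibers of the matrix, from which integrins, proteases or thrombospondin-1 can release the active ligand. LTBP1, LTBP3 and, less efficiently, LTBP4 bind latent TGF-beta, while LTBP2 does not and is an elastic fiber protein. In tumors, TGF-beta is known as an inducer of matrix production by fibroblasts and as a suppressor of immune cells.

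The count tables held unique molecular identifiers (UMIs), each one captured transcript, for 7582 barcodes in KPCA.FSTKO and 4244 in KPCA.FSTKO_hFSTL3. Filters on mitochondrial share and genes per barcode kept 6777 and 4041 barcodes, with a median of 17253 and 15071 UMIs. The barcode sequences of 10 kept barcodes occurred in both libraries. Levels are given as CPM, the UMIs of a gene per 1000000 UMIs of all cells of a class, with an exact Poisson 95% interval that covers counting error only. UMIs are read from the 3' end and capture differs between genes, so levels were compared between classes and not between genes.

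Cells were placed in 13 classes by the summed CPM of marker genes and are named after those markers. In KPCA.FSTKO, 4086 cells were cancer-like, 785 macrophage-like, 325 fibroblast-like, 98 neutrophil-like, 92 endothelial-like, 78 erythroid-like and 74 T/NK-like. Smaller classes held 35 mesothelial-like, 27 myofibroblast-like, 23 pericyte-like, 21 B-like, 18 dendritic-like and 15 mast-like cells. All markers of each class were above the rest of the library there, which the gates largely set, since they sum the same markers. The fibroblast-like, myofibroblast-like, mesothelial-like and pericyte-like cells are called stromal-like when summed, 410 cells in KPCA.FSTKO. Of the KPCA.FSTKO cells, 187 passed the gates of several unrelated classes and 847 passed none, and both sets were left out. The cuts divide continuous scores, and 165 of the cancer-like, 36 of the macrophage-like and 20 of the fibroblast-like cells lay within 0.8 to 1.25 times the cut. The stromal classes overlap in their genes: the median mesothelial-like cell held 10936 CPM of fibroblast markers beside 868 CPM of its own, and the median myofibroblast-like cell 9528 beside 13616 CPM. The median fibroblast-like and macrophage-like cells held 224 and 181 CPM of cancer markers, against 5119 CPM in cancer-like cells.

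The KPCA.FSTKO_hFSTL3 library stood apart. There, 3600 of the kept barcodes (89.1%) carried pancreatic acinar transcripts above the gate, against 66 barcodes in KPCA.FSTKO. Of these 3600 barcodes, 87.8% also held at least 3 cancer markers, 81.2% at least 3 fibroblast markers, 79.9% at least 3 macrophage markers and 80.3% at least 3 erythroid markers, and they were kept out of every class. The remaining cells were 221 cancer-like, 109 macrophage-like, 32 fibroblast-like, 13 myofibroblast-like, 9 mesothelial-like, 7 endothelial-like and 5 pericyte-like, with 59 stromal-like cells in all. Of the markers, 9 of 12 for cancer, 11 of 12 for fibroblasts and 9 of 9 for macrophages were above the rest of that library in their class. The cancer markers not above the rest were the epithelial genes Epcam, Cldn4 and Cldn7, with 4, 1 and 2 UMIs in the cancer-like cells. In the classes of at least 5 cells the acinar markers summed to between 432 and 1005 CPM, against 34.0 to 311 CPM in the classes of KPCA.FSTKO. Their part in the results was not tested. Fst itself stood at 5.20 CPM (KPCA.FSTKO) and 8.60 CPM (KPCA.FSTKO_hFSTL3) when cancer-like cells were summed, and the stromal-like sums held 113 and 167 CPM. An edit within the gene need not remove its 3' UMIs, so this level does not check the knockout, and the human transgene is not in the mouse reference.

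The genes lie on separate loci of the mouse genome (GRCm38). Tgfb1 is at chr7:25687002-25705077 on the plus strand and Ltbp1 at chr17:75005568-75392512 on the plus strand. Tgfb2 is at chr1:186622792-186705989 on the minus strand, and Tgfb3 at chr12:86056745-86079041 on the minus strand. Ltbp2 is at chr12:84783212-84876532 on the minus strand, Ltbp3 at chr19:5740904-5758532 on the plus strand, and Ltbp4 at chr7:27305136-27337692 on the minus strand. Thbs1 is at chr2:118111876-118127133 on the plus strand.

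RefSeq promoter windows on GRCm38.p6, of 250 bases before to 50 bases after an annotated start, were found for 6 of the 8 genes. The 200 bases before the start are shown for the gene with the sharpest stromal pattern (Tgfb2), the gene with the sharpest cancer pattern (Ltbp1, the first of its start sites) and the isoform found in most classes (Tgfb1). They are chr7:25686802-25687001 on the plus strand for Tgfb1, chr1:186705990-186706189 on the minus strand for Tgfb2 and chr17:75005329-75005528 on the plus strand for Ltbp1, written 5' to 3' along the gene. Capitals mark the matches to 5 motifs searched on both strands: the TATA box TATAAA, the GC box GGGCGG, the cyclic AMP response element TGACGTCA, the AP-1 site TGANTCA and the E-box CACGTG.
Tgfb1: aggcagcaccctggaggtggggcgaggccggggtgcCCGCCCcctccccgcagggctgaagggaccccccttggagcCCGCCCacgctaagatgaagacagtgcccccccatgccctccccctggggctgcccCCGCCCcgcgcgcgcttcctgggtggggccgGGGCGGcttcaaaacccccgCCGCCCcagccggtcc
Tgfb2: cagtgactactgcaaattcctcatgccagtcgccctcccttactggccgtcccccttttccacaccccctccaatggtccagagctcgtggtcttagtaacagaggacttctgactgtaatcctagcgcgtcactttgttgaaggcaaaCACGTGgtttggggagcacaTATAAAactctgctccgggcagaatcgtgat
Ltbp1: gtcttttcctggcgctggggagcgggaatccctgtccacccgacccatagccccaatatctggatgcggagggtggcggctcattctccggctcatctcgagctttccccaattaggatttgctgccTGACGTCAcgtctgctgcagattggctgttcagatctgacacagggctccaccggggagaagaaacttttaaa

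The Tgfb1 sequence held 5 GC boxes and no TATA box, and 77% of its 300-base window was G or C, against a median of 52.7% over the 32851 windows of all genes. The Tgfb2 sequence held a TATA box at positions -31 to -26, counted with 0 at the start base, and an E-box at -51 to -46. The Ltbp1 sequence held a cyclic AMP response element at -73 to -66. A GC box occurred in 35.7% of all windows, a TATA box in 13.6%, an AP-1 site in 7.81%, an E-box in 7.15% and a cyclic AMP response element in 1.79%. The windows of Ltbp2 and Ltbp4 held GC boxes, and that of Ltbp3 held an AP-1 site at -6 to 0. The matches describe the letters of these windows only.

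Tgfb2 was highest in the stromal-like cells. In KPCA.FSTKO it stood at 337 CPM (322 to 352) in fibroblast-like cells, 273 CPM (227 to 325) in myofibroblast-like cells, 147 CPM (121 to 178) in mesothelial-like cells and 75.9 CPM (46.4 to 117) in pericyte-like cells. It fell off outside the stroma, to 31.0 CPM (20.1 to 45.8) in endothelial-like cells, 14.0 CPM (13.3 to 14.7) in cancer-like cells and 1.5 CPM (0.857 to 2.44) in macrophage-like cells. Each of the first 4 steps of this order, from fibroblast-like down to endothelial-like cells, was larger than its counting error. Stromal-like cells held 21.7 times the Tgfb2 level of cancer-like cells (20.4 to 23.2) in KPCA.FSTKO and 23.3 times (19.2 to 28.5) in KPCA.FSTKO_hFSTL3. With only 410 of the 6777 kept cells, the stromal-like classes gave 50.6% of all Tgfb2 UMIs of the KPCA.FSTKO library and cancer-like cells 36.1%.

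The share of cells with a Tgfb2 UMI was also read at equal depth. After each cell was thinned to 1000 UMIs, 24.2% of stromal-like cells (20.1 to 28.7, exact binomial interval) had at least 1 Tgfb2 UMI, against 1.44% of cancer-like cells (1.09 to 1.86) and 0.257% of macrophage-like cells (0.0311 to 0.926). Within the stromal-like cells the share was 27.4% in fibroblast-like, 17.1% in mesothelial-like and 15.4% in myofibroblast-like cells and 0% of 23 pericyte-like cells, which is not the order of the levels. Without thinning the shares were 73.9%, 20.1% and 1.66%, at median depths of 16850.5, 25971 and 12927 UMIs. In T/NK-like cells, which should lack the gene, 1.35% (0.0342 to 7.30, 1 cell of 74) had a Tgfb2 UMI after thinning, so the cancer-like share is not distinguishable from background by that class, while it lies above the macrophage-like share. Within the fibroblast-like class the level was uneven. Over the 245 such cells with at least 10000 UMIs, the median was 222 CPM, the highest cell reached 4278 CPM, and the tenth of cells with most UMIs held 42.0% of the Tgfb2 UMIs.

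Tgfb1, the isoform best known from immune and endothelial cells, was the most evenly spread. Its level in KPCA.FSTKO was 175 CPM (128 to 233) in pericyte-like, 171 CPM (144 to 202) in endothelial-like, 137.5 CPM (106 to 176) in T/NK-like and 136 CPM (129 to 143) in macrophage-like cells. Fibroblast-like cells held 83.4 CPM (76.1 to 91.2), cancer-like cells 65.1 CPM (63.7 to 66.7) and mesothelial-like cells 30.9 CPM (19.3 to 46.7). Neighbours in the order of all 13 classes did not differ beyond counting error, except cancer-like against mesothelial-like cells. Macrophage-like cells held 2.08 times the level of cancer-like cells (1.97 to 2.20), and endothelial-like cells 2.63 times (2.21 to 3.11). Because cancer-like cells were the most numerous, they still gave 69.9% of the library's Tgfb1 UMIs and macrophage-like cells 13.9%.

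Tgfb3 was highest in myofibroblast-like cells, which carry contractile genes. It stood there at 118 CPM (88.1 to 154), which was 2.15 times the fibroblast-like level of 54.8 CPM (ratio interval 1.57 to 2.88). Pericyte-like cells held 64.6 CPM (37.6 to 103) and macrophage-like cells 51.4 CPM (47.2 to 55.9), so macrophage-like and fibroblast-like cells did not differ beyond counting error. Cancer-like cells held 22.3 CPM (21.5 to 23.2) and endothelial-like cells 6.21 CPM (2.02 to 14.5, from 5 UMIs).

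**Figure D1:**
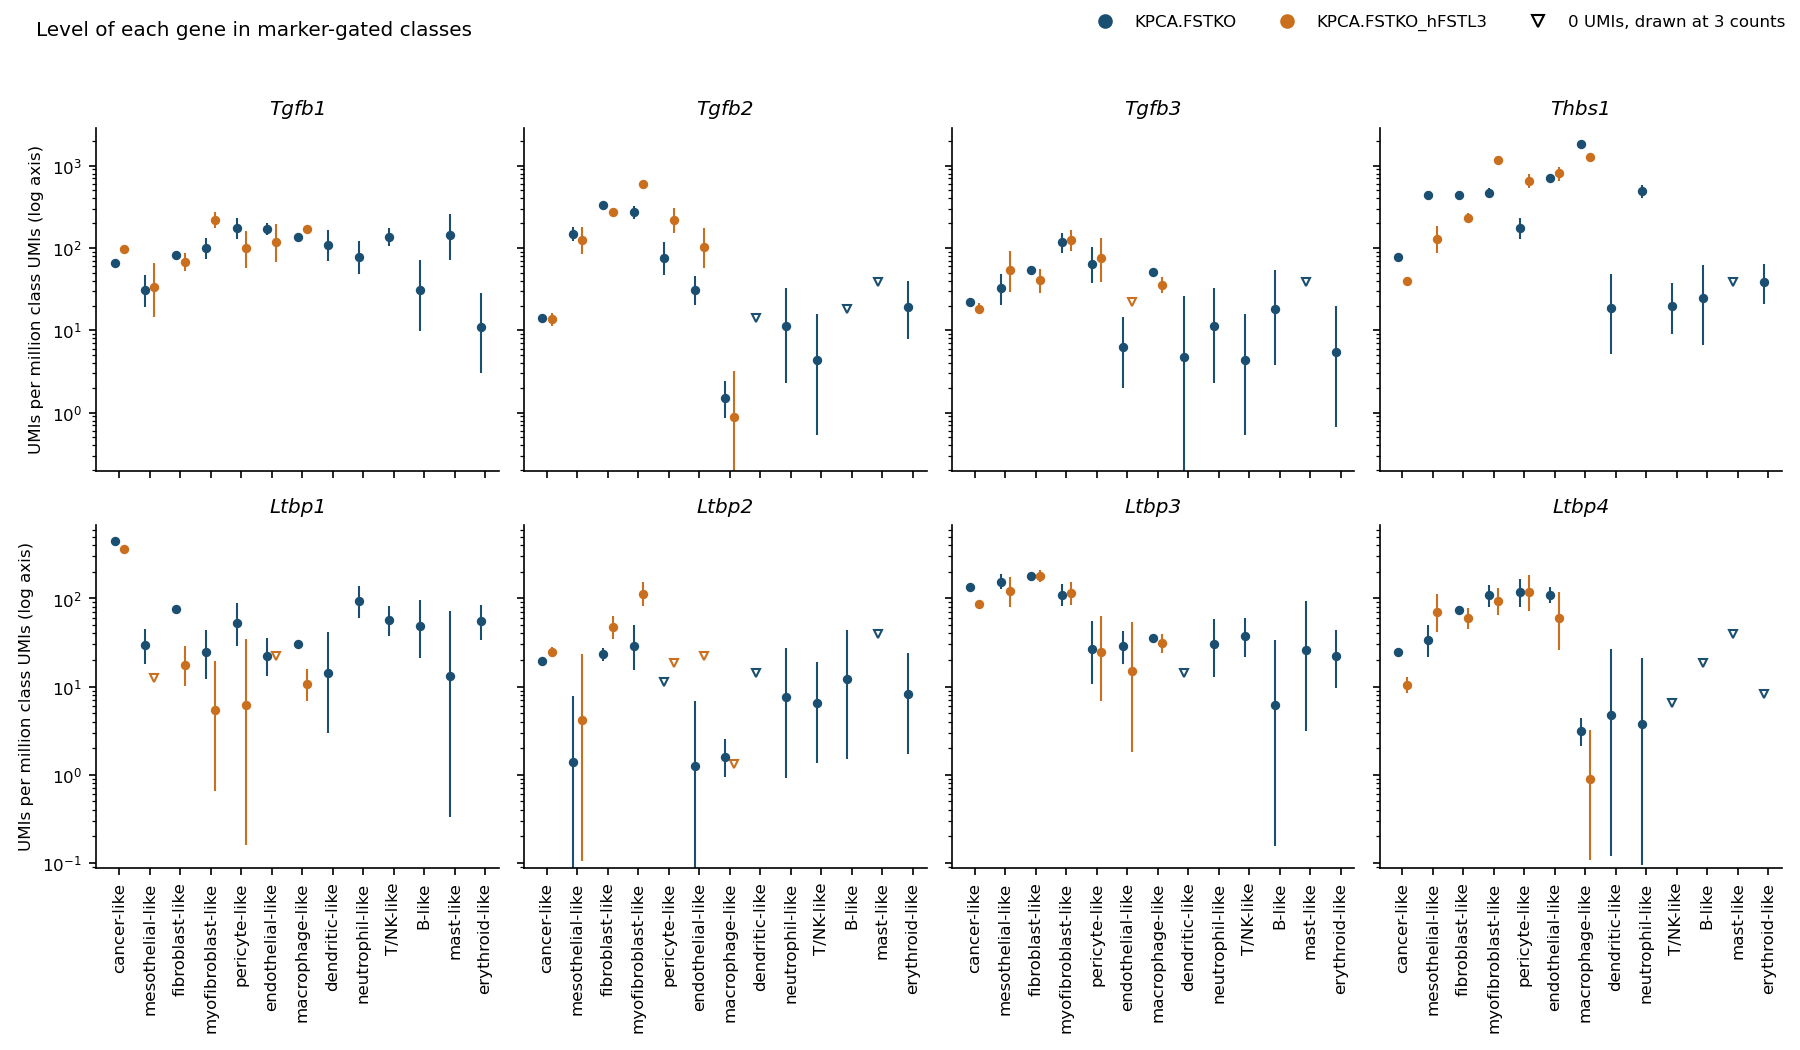
Level of each of the 8 genes (CPM, log scale, vertical axis) in the marker-gated classes (horizontal axis), with exact Poisson 95% intervals as bars. Open triangles mark classes with no UMI, drawn at the level of 3 counts, and intervals that reach below the lower edge are cut there. Tgfb2 was led by fibroblast-like cells at 337 CPM, Ltbp1 by cancer-like cells at 449 CPM and Thbs1 by macrophage-like cells at 1855 CPM in KPCA.FSTKO.

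The mix of isoforms therefore differed between classes. The share of each isoform in the summed UMIs of the 3 was compared between classes, since a difference in capture between genes enters every class alike. In KPCA.FSTKO, Tgfb2 made up 70.9% of the isoform UMIs of fibroblast-like cells (69.2 to 72.6), 70.0% in mesothelial-like cells (62.0 to 77.2) and 55.7% in myofibroblast-like cells (48.8 to 62.3). The share was 24.1% in pericyte-like cells (15.4 to 34.7), 13.8% in cancer-like cells (13.2 to 14.5) and 0.796% in macrophage-like cells (0.456 to 1.29). Tgfb1 made up 94.0% in T/NK-like cells (85.4 to 98.3), 82.1% in endothelial-like cells (75.5 to 87.6), 71.9% in macrophage-like cells (69.9 to 73.9) and 64.2% in cancer-like cells (63.3 to 65.1). Tgfb3 took 27.3% in macrophage-like and 24.0% in myofibroblast-like cells.

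In KPCA.FSTKO_hFSTL3, Tgfb2 made up 71.4% of the isoform UMIs of its fibroblast-like cells (66.3 to 76.1) and 63.1% of those of its myofibroblast-like cells (57.9 to 68.2). Tgfb1 made up 82.4% in macrophage-like cells (78.6 to 85.7) and 75.4% in cancer-like cells (72.8 to 77.8). The intervals of the 2 libraries did not overlap for Tgfb1 in cancer-like or in macrophage-like cells, with the higher share in KPCA.FSTKO_hFSTL3 in both. In its 7 endothelial-like and 5 pericyte-like cells Tgfb2 made up 46.7% (28.3 to 65.7) and 55.6% (42.5 to 68.1), more than in KPCA.FSTKO. The median pericyte-like cell there held 7348 CPM of myofibroblast markers and 5678 CPM of pericyte markers, against 2908 and 9323 CPM in KPCA.FSTKO, so the cells in this gate differed between the libraries.

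**Figure D2:**
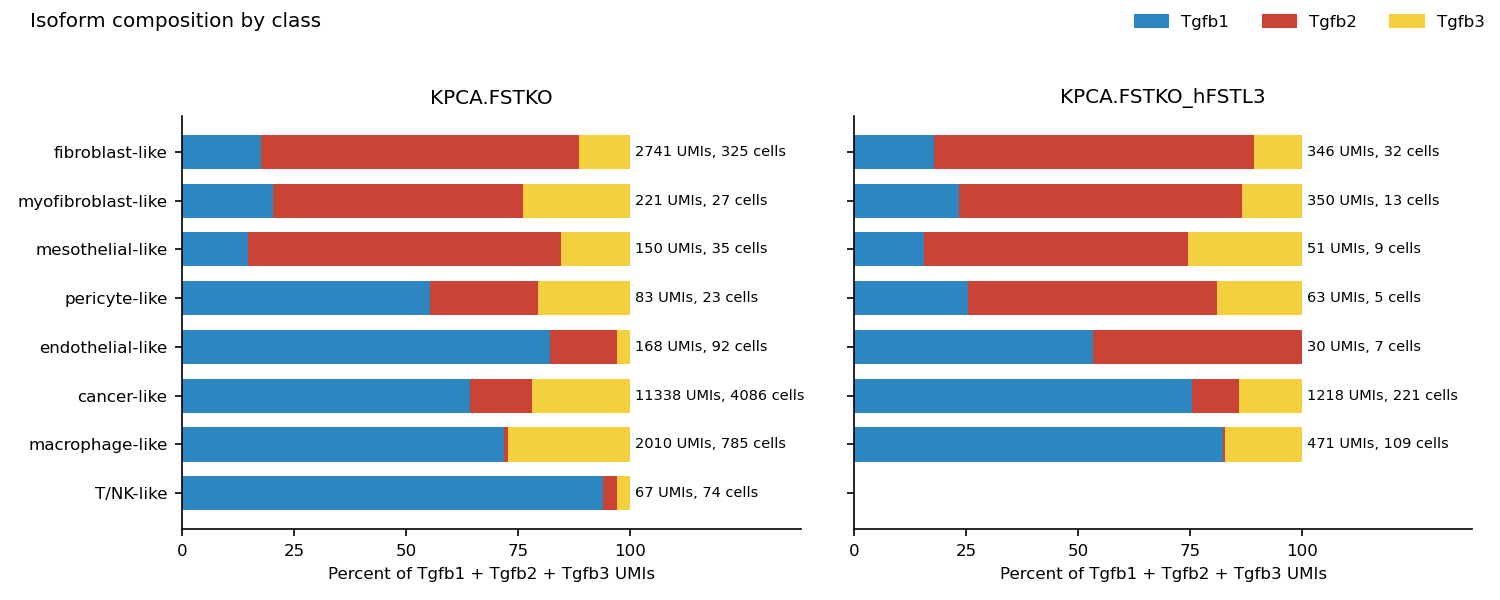
Share of Tgfb1, Tgfb2 and Tgfb3 in their summed UMIs (percent, horizontal axis) by class and library. Tgfb2 takes 70.9% of the bar of fibroblast-like cells and 0.796% of that of macrophage-like cells in KPCA.FSTKO, and 71.4% and 0.425% in KPCA.FSTKO_hFSTL3.

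Among the binding proteins, Ltbp1 had the opposite pattern to Tgfb2. Cancer-like cells of KPCA.FSTKO held 449 CPM (445 to 453), 6.73 times the stromal-like level of 66.7 CPM (ratio interval 6.15 to 7.38) and 14.8 times the macrophage-like level of 30.3 CPM (13.3 to 16.6). They gave 92.8% of all Ltbp1 UMIs of the library. After thinning, 34.1% of cancer-like cells (32.6 to 35.6) had a Ltbp1 UMI, against 7.48% of stromal-like cells (5.10 to 10.5) and 2.83% of macrophage-like cells (1.78 to 4.25). Without thinning the shares were 88.1%, 32.0% and 20%. In KPCA.FSTKO_hFSTL3, cancer-like cells held 367 CPM (355 to 379) and stromal-like cells 11.3 CPM (6.80 to 17.6), 32.5 times less (20.8 to 54.0).

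Ltbp1 UMIs were also found in cells that should not make it. Erythroid-like cells, with a median of 4151 UMIs, held Ltbp1 at 206 CPM when scaled to their UMIs other than haemoglobin (126 to 318). After thinning, 7.04% of them (2.33 to 15.7) had a Ltbp1 UMI. Haemoglobin made up 73.3% of their UMIs, and thinning does not equalize the part of RNA from other cells between classes. This class therefore cannot decide whether the stromal-like and macrophage-like shares exceed background. T/NK-like cells held Ltbp1 at 56.8 CPM (37.1 to 83.2) and neutrophil-like cells at 93.8 CPM (60.7 to 139). Both levels were above the macrophage-like level of 30.3 CPM (27.1 to 33.8), and both intervals included the stromal-like level of 66.7 CPM. On the scale of UMIs of a gene per 1000000 UMIs other than haemoglobin, erythroid-like cells held Thbs1 at 144 (78.9 to 242), Ltbp3 at 82.4 (35.6 to 162), Tgfb2 at 72.1 (29.0 to 149, all 7 UMIs in 1 cell), Tgfb1 at 41.2 (11.2 to 106), Ltbp2 at 30.9 (6.38 to 90.4) and Tgfb3 at 20.6 (2.50 to 74.5). The cancer-like levels of these 6 genes all lay below the upper bounds, as did every Ltbp2 level of KPCA.FSTKO given here. So did some levels of other classes, such as Tgfb2 in mesothelial-like and pericyte-like cells and Tgfb1 in fibroblast-like cells. Tgfb3 in fibroblast-like and macrophage-like cells and Ltbp3 in mesothelial-like cells also lay below them. This scale gives the make-up of the RNA other than haemoglobin, not its amount per cell. Cancer-like cells gave most UMIs of the library, so the scale cannot decide whether these levels exceed background. The spread within classes differed as well: among cells with at least 10000 UMIs, the tenth with most Ltbp1 UMIs held 75.2% of them in stromal-like cells and 28.1% in cancer-like cells. Relative to the summed cancer markers, Ltbp1 stood at 7.82 UMIs per 100 marker UMIs in cancer-like (7.75 to 7.89) and 22.7 in fibroblast-like cells (20.4 to 25.2). It stood at 14.0 in macrophage-like (12.5 to 15.8) and 12.3 in erythroid-like cells (7.35 to 19.7). The values were 14.7 in T/NK-like (9.34 to 22.3) and 12.8 in neutrophil-like cells (8.06 to 19.4). The stromal-like level depended on the cells counted, since the log2 ratio to cancer-like cells was -2.75 in the main setting, -1.90 with cells of several classes kept in and -3.57 without the 5% of cells with most Ltbp1 UMIs.

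Ltbp3, whose product binds latent TGF-beta and is best known from bone and tooth, was at similar levels in fibroblast-like cells, 179 CPM (168 to 190), mesothelial-like cells, 156 CPM (128 to 188), and cancer-like cells, 137 CPM (134 to 139). Stromal-like cells held 1.22 times the cancer-like level (1.15 to 1.30). Endothelial-like cells held 28.5 CPM (18.1 to 42.8) and macrophage-like cells 35.3 CPM (31.9 to 39.1).

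Ltbp4, an elastic fiber protein, was highest in vessel-associated and contractile classes. Its level was 118 CPM (80.0 to 167) in pericyte-like, 110 CPM (88.7 to 136) in endothelial-like and 109 CPM (80.4 to 144) in myofibroblast-like cells, which did not differ beyond counting error. Fibroblast-like cells held 74.4 CPM (67.5 to 81.8), cancer-like cells 24.5 CPM (23.6 to 25.4) and macrophage-like cells 3.09 CPM (2.13 to 4.35). No Ltbp4 UMI was found in 74 T/NK-like or 78 erythroid-like cells, where 3 counts would be 6.55 and 8.27 CPM.

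Ltbp2 stood at 28.8 CPM (15.3 to 49.3) in myofibroblast-like cells, 23.4 CPM (19.6 to 27.7) in fibroblast-like cells and 19.3 CPM (18.5 to 20.2) in cancer-like cells. Stromal-like and cancer-like cells of KPCA.FSTKO did not differ beyond counting error (ratio 1.07, 0.901 to 1.27), while in KPCA.FSTKO_hFSTL3 the stromal-like level was 2.07 times the cancer-like level (1.59 to 2.66), with 28 of the 86 stromal-like UMIs in 1 cell. Macrophage-like cells held 1.59 CPM (0.928 to 2.55).

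The binding protein gene with most UMIs differed between classes. Ltbp1 made up 71.3% of the summed UMIs of the 4 Ltbp genes in cancer-like cells (71.0 to 71.7), Ltbp3 made up 50.9% in fibroblast-like cells (48.7 to 53.1) and 70.7% in mesothelial-like cells (62.9 to 77.7), and Ltbp4 made up 67.9% in endothelial-like cells (59.2 to 75.8) and 59.6% in pericyte-like cells (45.1 to 73.0). Ltbp3 and Ltbp4 had like shares in myofibroblast-like cells, 40.7% (31.9 to 49.9) and 39.8% (31.1 to 49.1). So did Ltbp3 and Ltbp1 in macrophage-like cells, 50.3% (46.6 to 53.9) and 43.1% (39.5 to 46.7). The macrophage-like levels of Ltbp1 and Ltbp3 were not above those of T/NK-like cells, 56.8 and 37.1 CPM, where Ltbp1 made up 56.5% (41.1 to 71.1). The part of RNA from other cells in the macrophage-like shares was not tested. In KPCA.FSTKO_hFSTL3 the leading shares were 75.2% for Ltbp1 in cancer-like cells (74.0 to 76.5) and 59.1% for Ltbp3 in fibroblast-like cells (53.1 to 65.0).

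Thbs1, which encodes the matricellular protein thrombospondin-1, was highest in macrophage-like cells. Macrophage-like cells of KPCA.FSTKO held 1855 CPM (1829 to 1881), followed by endothelial-like cells at 709 CPM (652 to 769), neutrophil-like cells at 488 CPM (408 to 579), myofibroblast-like cells at 461 CPM (401 to 529) and fibroblast-like cells at 444 CPM (427 to 462). Pericyte-like cells held 175 CPM (128 to 233) and cancer-like cells 78.7 CPM (77.0 to 80.3). The macrophage-like level was 2.62 times the endothelial-like level (2.41 to 2.85) and 23.6 times the cancer-like level (23.0 to 24.2), and in KPCA.FSTKO_hFSTL3 it was 32.2 times the cancer-like level (28.9 to 36.0). Macrophage-like cells gave 52.1% of the library's Thbs1 UMIs. After thinning, 62.7% of them (59.2 to 66.1) had a Thbs1 UMI, against 9.15% of cancer-like cells (8.27 to 10.1) and 0% of the 74 T/NK-like cells (exact binomial upper bound 4.86), whose median depth of 4622.5 UMIs was below the 12927 of macrophage-like cells. Without thinning the shares were 87.6%, 51.7% and 6.76%. Erythroid-like cells had 5.63% (1.56 to 13.8) after thinning, an interval that includes the cancer-like share.

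Thbs1 varied within the macrophage-like cells. Cells at or above the median of Arg1, the arginase gene of alternatively activated macrophages, held 2384 CPM (2345 to 2423) and cells below it 1168 CPM (1137 to 1200) in KPCA.FSTKO. For KPCA.FSTKO_hFSTL3 the levels of the same sets were 1767 CPM (1693 to 1844) against 739 CPM (688 to 793). Tgfb3 followed the same split, with 59.6 against 40.7 CPM in KPCA.FSTKO and 60.5 against 7.63 CPM in KPCA.FSTKO_hFSTL3. Tgfb1 did not differ beyond counting error in KPCA.FSTKO, with 137 CPM (128 to 147) and 134 CPM (123 to 145). For KPCA.FSTKO_hFSTL3 it stood at 188 CPM (164 to 214) against 153 CPM (131 to 179), with intervals that overlap. The cells with more Arg1 were deeper, with a median of 14891 against 10913 UMIs in KPCA.FSTKO, and the part of depth was not tested.

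Ltbp1 varied among cancer-like cells with Malat1, a nuclear RNA whose share rises when cytoplasmic RNA is lost. Over 3 equal sets of cells ordered from low to high Malat1, Ltbp1 stood at 323, 450 and 580 CPM in KPCA.FSTKO. The KPCA.FSTKO_hFSTL3 values were 218, 426 and 433 CPM. Thbs1 moved with it in KPCA.FSTKO, at 58.5, 76.8 and 102 CPM, and Tgfb1 stood at 63.6, 69.4 and 61.3 CPM. In KPCA.FSTKO_hFSTL3 Thbs1 did not rise at each step, at 37.8, 32.2 and 50.7 CPM, and Tgfb1 stood at 110, 79.3 and 106 CPM. By depth, Ltbp1 stood at 541 CPM in cancer-like cells under 10000 UMIs and 425 CPM in those with 30000 or more UMIs of KPCA.FSTKO. The direction was the other in KPCA.FSTKO_hFSTL3, with 122 CPM (68.5 to 202, 23 cells) and 368 CPM (355 to 381). The part of RNA quality in the level of Ltbp1 was not tested.

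**Figure D3:**
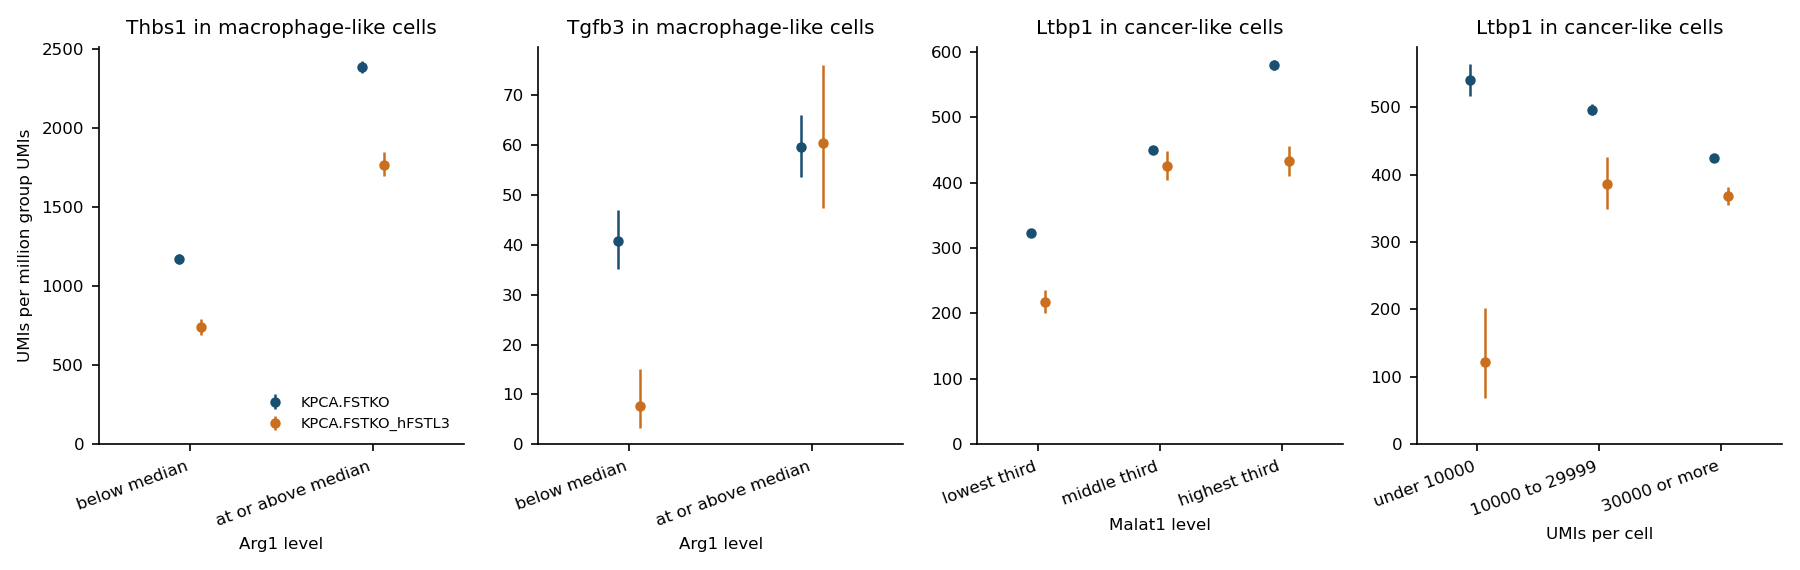
Levels (CPM, vertical axes) of Thbs1 and Tgfb3 in macrophage-like cells split at the median of Arg1, and of Ltbp1 in cancer-like cells split into 3 equal sets by Malat1 or into 3 ranges of UMIs per cell, with exact Poisson 95% intervals, for both libraries. Thbs1 stood at 2384 against 1168 CPM in the 2 sets of macrophage-like cells of KPCA.FSTKO, and Ltbp1 rose from 323 to 580 CPM over the sets of cancer-like cells.

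The class contrasts were also read over all genes. Of the 13442 genes with at least 100 UMIs over stromal-like and cancer-like cells of KPCA.FSTKO, 14.9% were at least 2 times higher and 17.5% at least 2 times lower in stromal-like cells. Among the 8 genes, 4 were higher (Tgfb2, Tgfb3, Ltbp4 and Thbs1), with Tgfb3 at 2.55 times (2.29 to 2.83), Ltbp4 at 3.03 times (2.75 to 3.32) and Thbs1 at 5.53 times (5.31 to 5.76), and 1 was lower (Ltbp1). Tgfb1 stood at 1.27 times (1.16 to 1.38). Of the 13527 genes in the macrophage-like contrast, 16.0% were at least 2 times higher and 32.2% at least 2 times lower than in cancer-like cells. Here 3 of the 8 genes were higher (Tgfb1, Tgfb3 and Thbs1) and 5 were lower (Tgfb2 and the 4 Ltbp genes). The median log2 ratio of the 8 genes was 0.85 in the stromal-like contrast and -2.47 in the macrophage-like contrast, against -0.16 and -0.43 over all genes.

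The libraries were then compared within a class. In cancer-like cells, 3.11% of 13115 genes were at least 2 times higher in KPCA.FSTKO_hFSTL3 and 7.36% at least 2 times lower, and the counts among the 8 genes were 0 and 1. The lower gene was Ltbp4, with 24.5 CPM in KPCA.FSTKO and 10.5 CPM in KPCA.FSTKO_hFSTL3 (ratio 0.429, 0.348 to 0.525). Its log2 ratio was -1.22, and -0.85 as a mean over cells of each cell's CPM, which is short of 2 times. Thbs1 went from 78.7 to 40.0 CPM (ratio 0.509, 0.458 to 0.564) and Ltbp3 from 137 to 85.6 CPM (ratio 0.627, 0.583 to 0.673). Tgfb1 went the other way, from 65.1 to 97.5 CPM (ratio 1.5, 1.40 to 1.60). Tgfb2 did not differ beyond counting error (ratio 0.970, 0.804 to 1.16). The cancer-like cells of KPCA.FSTKO_hFSTL3 were deeper, with a median of 42585 against 25971 UMIs, and carried 432 against 34.0 CPM of acinar markers. Thbs1 was lower in deeper cancer-like cells of both libraries. Under 10000 UMIs it stood at 131 CPM (120 to 143) in KPCA.FSTKO and 97.9 CPM (50.6 to 171, 12 UMIs) in KPCA.FSTKO_hFSTL3. In the middle range the levels were 104 and 74.5 CPM, and at 30000 or more UMIs 65.7 and 34.9 CPM. The part of depth and of acinar markers in the library ratios was not tested.

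In the summed stromal-like cells, 1.57% of 8418 genes were at least 2 times higher in KPCA.FSTKO_hFSTL3 and 2.51% at least 2 times lower, with 1 of the 8 genes on each side. Ltbp2 went from 20.7 to 51.1 CPM (ratio 2.47, 1.87 to 3.24), and Ltbp1 from 66.7 to 11.3 CPM (ratio 0.169, 0.101 to 0.267). Ltbp2 was higher in both of the main stromal classes, from 23.4 to 47.3 CPM in fibroblast-like cells and from 28.8 to 113 CPM in myofibroblast-like cells. These values rest on few cells: 1 myofibroblast-like cell held 28 of the 86 stromal-like Ltbp2 UMIs of KPCA.FSTKO_hFSTL3. Without the cell with most Ltbp2 UMIs in each library, an alternative chosen after seeing the data, the ratio was 1.81 (1.31 to 2.47) in stromal-like cells, 1.46 (0.933 to 2.21) in fibroblast-like cells and 2.42 (0.915 to 7.09) in myofibroblast-like cells, so the stromal-like ratio fell short of 2 times and the intervals of the other two included 1. Tgfb2 (ratio 1.04, 0.944 to 1.14), Ltbp4 (1.01, 0.826 to 1.23) and Thbs1 (1.06, 0.981 to 1.15) did not differ beyond counting error. The summed cancer markers in fibroblast-like cells went from 332 to 181 CPM and those in macrophage-like cells from 216 to 90.9 CPM, in the direction of Ltbp1, and the part of cancer RNA in the Ltbp1 values was not tested. With cells of several classes kept in, the log2 ratio of Ltbp1 between the libraries was -3.45 against -2.56.

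The values in fibroblast-like and myofibroblast-like cells went opposite ways for Tgfb2 and Thbs1. In fibroblast-like cells, 1.58% of 7477 genes were at least 2 times higher in KPCA.FSTKO_hFSTL3 and 3.16% at least 2 times lower, with 1 of the 8 genes on each side (Ltbp2 and Ltbp1). In myofibroblast-like cells, 5.70% of 1316 genes were at least 2 times higher and 2.66% at least 2 times lower, and of the 4 members with 100 UMIs there 3 were higher (Tgfb1, Tgfb2 and Thbs1). Of 1310 genes with 100 UMIs in both classes, 2.75% were lower in fibroblast-like and higher in myofibroblast-like cells with both intervals off 1, as were 2 of the 4 members, and 2.98% went the other way around. Tgfb2 went from 337 to 272 CPM in fibroblast-like cells (ratio 0.806, 0.703 to 0.920) and from 273 to 593 CPM in myofibroblast-like cells (ratio 2.17, 1.73 to 2.73). Thbs1 went from 444 to 232 CPM in fibroblast-like cells (ratio 0.522, 0.451 to 0.601) and from 461 to 1159 CPM in myofibroblast-like cells (ratio 2.51, 2.12 to 2.98). Tgfb1 went from 83.4 to 68.2 CPM (ratio 0.817, 0.617 to 1.07) and from 99.8 to 220 CPM (ratio 2.20, 1.51 to 3.24). These myofibroblast-like values rest on 27 and 13 cells, and the fibroblast markers of the median cell were at 9528 CPM in KPCA.FSTKO and 20117 CPM in KPCA.FSTKO_hFSTL3, so the cells in the gate differed between the libraries in more than these genes.

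In macrophage-like cells, 5 of the 8 genes had at least 100 UMIs over both libraries. Of 8563 genes, 1.80% were at least 2 times higher in KPCA.FSTKO_hFSTL3 and 1.78% at least 2 times lower, with 0 and 1 of the 5 genes. The lower gene was Ltbp1, from 30.3 to 10.6 CPM (ratio 0.351, 0.222 to 0.532), beside the drop in cancer markers given above. Thbs1 went from 1855 to 1289 CPM (ratio 0.695, 0.668 to 0.723), Tgfb3 from 51.4 to 35.9 CPM (ratio 0.699, 0.546 to 0.884) and Tgfb1 from 136 to 172 CPM (ratio 1.27, 1.13 to 1.42).

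**Figure D4:**
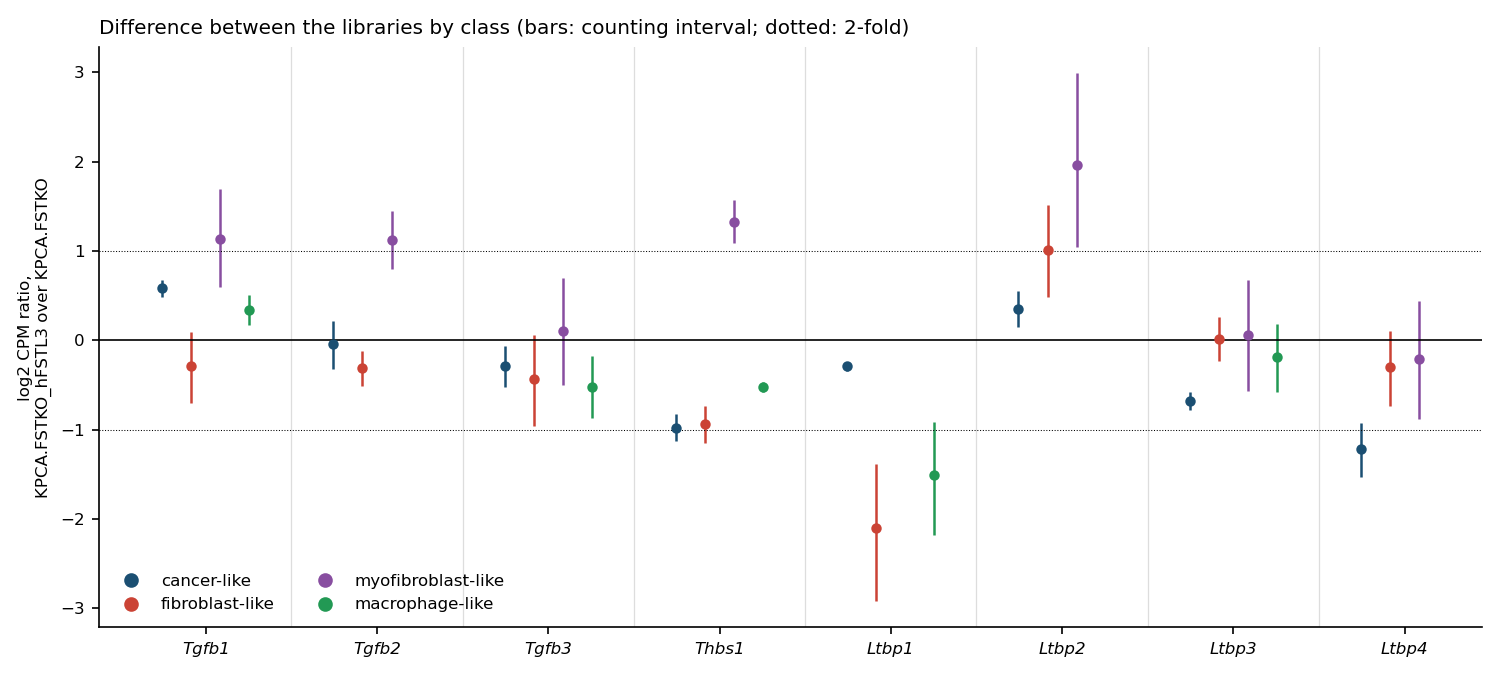
Ratio of the level in KPCA.FSTKO_hFSTL3 to that in KPCA.FSTKO (log2, vertical axis) for each gene (horizontal axis) in cancer-like, fibroblast-like, myofibroblast-like and macrophage-like cells, with 95% intervals. Points with fewer than 5 UMIs in either library are left out. Thbs1 lies below 0 on this scale in 3 of the 4 classes and at 1.33 in myofibroblast-like cells.

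The other genes of the pathway were read from 5 lists, with 45 genes in all, of which 43 had at least 100 UMIs in the stromal-like against cancer-like contrast of KPCA.FSTKO. The counts below stand beside 14.9% of all genes higher, 17.5% lower and a median log2 ratio of -0.16 over all genes. Of the latency tethers and matrix anchors, 5 of 7 were at least 2 times higher in stromal-like cells and 0 lower, with a median log2 ratio of 5.34. The fibrillins Fbn2 and Fbn1, to which binding proteins attach, stood at 407 and 558 CPM in fibroblast-like cells and at 1.00 and 7.38 CPM in cancer-like cells. Lrrc32, which encodes the cell-surface tether GARP, stood at 53.2 against 1.10 CPM, and the elastic fiber gene Fbln5 at 19.2 against 0.474 CPM. Nrros, the tether of microglia and macrophages, held 96.3 CPM in macrophage-like and 0.582 CPM in cancer-like cells. Endothelial-like cells held 135 CPM of Lrrc32 and 89.4 CPM of Fbln5, above the fibroblast-like levels, and 75.7 CPM of Nrros. Their levels of Fbn1 and Fbn2 were 41.0 and 19.9 CPM.

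Of the activators and processing enzymes, 6 of 14 were higher and 1 lower in stromal-like cells, with a median log2 ratio of 0.56. The metalloproteinase gene Mmp2 stood at 493 CPM in fibroblast-like against 1.59 CPM in cancer-like cells, the proprotein convertase gene Pcsk5 at 30.5 against 0.233 CPM, and Bmp1, an astacin protease gene, at 417 against 34.4 CPM. Itgb8, the beta chain of an integrin that activates TGF-beta, stood at 50.8 against 6.01 CPM. Mmp14 held 588 CPM in myofibroblast-like and 131 CPM in cancer-like cells. Pcsk6, another convertase gene, went the other way with 2.60 CPM in fibroblast-like and 15.1 CPM in cancer-like cells. Itgb6 and Mmp9 had no UMI in myofibroblast-like cells, where 3 counts would be 6.65 CPM, and about 1 CPM in cancer-like cells, so no difference was detectable.

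All 5 receptor genes were at least 2 times higher in stromal-like cells, with a median log2 ratio of 1.73. Tgfbr2, the ligand-binding receptor, stood at 335 CPM in fibroblast-like and 51.3 CPM in cancer-like cells, and Acvrl1, a type I receptor best known from endothelium, at 17.9 against 0.295 CPM. None of the 8 SMAD and feedback genes differed by 2 times or more in either direction. Of 9 genes known to respond to TGF-beta, 3 were higher (Postn, Ccn1 and Timp1) and 2 lower (Ccn2 and Id1), with a median log2 ratio of 0.28. Ccn2, a matricellular gene, stood at 103 CPM in stromal-like and 230 CPM in cancer-like cells, but at 466 CPM in myofibroblast-like cells. Postn, another matricellular gene, stood at 494 CPM in fibroblast-like and 7.29 CPM in cancer-like cells, and Timp1 at 1334 against 299 CPM. Id1, a target better known from BMP signalling, stood at 16.6 CPM in fibroblast-like and 73.3 CPM in cancer-like cells. Tgfbi stood at 8.87 CPM (4 UMIs) in myofibroblast-like, 100.5 CPM in fibroblast-like and 106 CPM in cancer-like cells, and its stromal-like ratio was 0.939.

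Between the libraries few of these genes passed 2 times. In cancer-like cells, 2 of 40 were higher in KPCA.FSTKO_hFSTL3 (Mmp9 and Postn) and 1 lower (Plau), beside 3.11% and 7.36% of all genes. In stromal-like cells, 1 of 40 was higher (Ccn2, ratio 2.86) and 0 lower, beside 1.57% and 2.51%. Within each of the main stromal classes Ccn2 stayed short of 2 times. It went from 86.7 to 157 CPM in fibroblast-like cells (ratio 1.81) and from 466 to 713 CPM in myofibroblast-like cells. Myofibroblast-like cells were 27 of 410 stromal-like cells in KPCA.FSTKO and 13 of 59 in KPCA.FSTKO_hFSTL3. The part of this class mix in the summed Ccn2 ratio was not tested. In macrophage-like cells 1 of 30 was higher (Mmp9, ratio 2.23) and 1 lower (Ccn2, ratio 0.305), beside 1.80% and 1.78%. This Ccn2 ratio (0.129 to 0.620) rests on 8 UMIs in KPCA.FSTKO_hFSTL3. Ccn2 went there from 11.6 to 3.55 CPM, beside the drop in cancer markers given above, whose part was not tested.

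**Figure D5:**
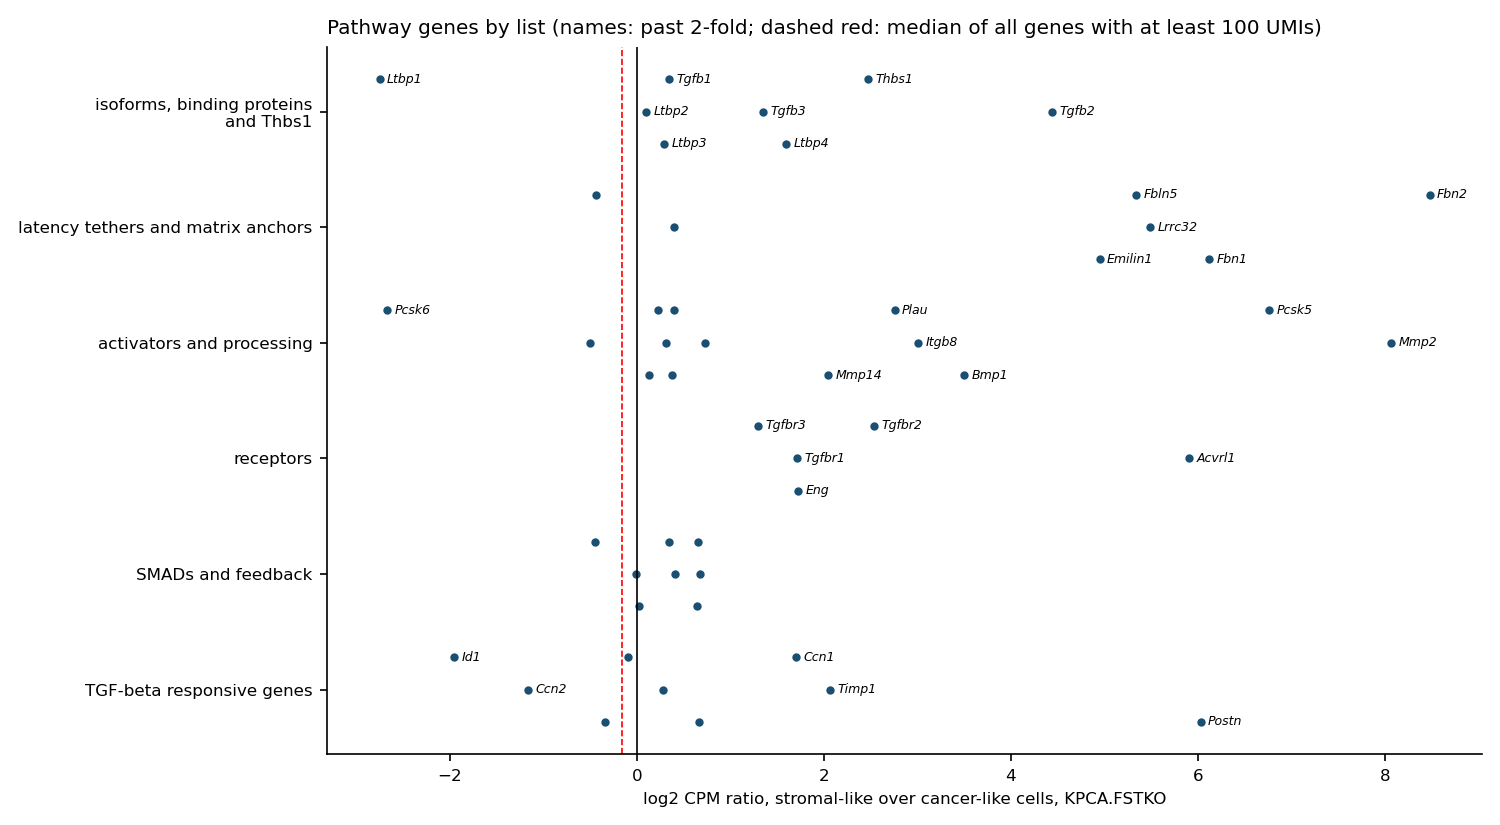
Ratio of the stromal-like to the cancer-like level in KPCA.FSTKO (log2, horizontal axis) for the 8 genes and the genes of the 5 pathway lists, each point a gene, with names for the 8 genes and for those past 2 times. The receptors all lie to the right of 2 times, and the SMAD and feedback genes all lie between the 2 limits.

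The genes whose class pattern was most like a member were sought over the 7 classes with at least 50 cells in KPCA.FSTKO, by Pearson's r of log2(CPM + 1) over 14212 genes. For Tgfb2 they were Pdgfrb, a receptor of fibroblasts and pericytes, Enpp2 and Mgp, each with r = 0.98. For Tgfb1 they were Lypla1, Tmem30a and Ube2j2 with r = 0.99, for Tgfb3 Lrp1, Itgb5 and Igsf8 with r from 0.97 to 0.98, and for Thbs1 Tcn2, Atg4c and Cpeb3 with r from 0.96 to 0.97. The 7 points share a library and differ in depth, so these values describe likeness only.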

How the data were processed

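Single-cell RNA was captured with a 10x Genomics 3' kit from dissociated omental tumors, with 1 library per genotype. The authors deposited UMI counts per gene and barcode, raw and not normalized, aligned to mm10 with Cell Ranger. The submitters' processing notes name version 3.1.0 and the matrix headers version 7.2.0. Whether intronic reads were counted, and whether doublets were removed, is not given in the sources used here. The cell numbers the study states equal the deposited barcodes, before its stated filters were applied here.

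Barcodes with a mitochondrial share under 20% and more than 200 but fewer than 8000 genes were kept. A cell entered a class with at least 3 markers of the class and a summed marker CPM above a cut. A cell that passed several stromal gates entered the class where its summed CPM was highest relative to the cut. These cuts were 8000 CPM for fibroblast, 2000 for myofibroblast, 1000 for pericyte and 300 for mesothelial markers. Cells that passed the mesothelial gate and no other stromal gate were kept there even if they passed the cancer gate. Cells passing several unrelated gates were left out, as no doublet caller was run. Ratios have conditional binomial 95% intervals, shares exact binomial ones, and all cover counting error only. Each class sum comes from 1 library, so no p-value was computed. A gene was counted as different at 100 UMIs or more and a ratio of at least 2.

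The members, marker lists and pathway lists were chosen with earlier results of these data known. Gate cuts were set after the score distributions were seen, and motifs with the sequences known. All members were named, with pathway genes that had at least 100 UMIs in the higher class and a ratio of at least 4 between fibroblast-like or myofibroblast-like and cancer-like cells (at most 4 per list and direction), and the 3 genes most like Tgfb1, Tgfb2, Tgfb3 and Thbs1. Of the pathway lists, 1 gene is not reported here. Nrros, Ccn1, Ccn2 and the genes past 2 times between libraries were named after their values were seen. Python 3.11.15, scipy 1.17.1 and, for TMM scaling, edgeR 4.0.16 were used.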

Additional observations from a re-analysis of the deposited data

Results flagged for a closer look

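Opposite directions between classes were found for 2 genes when KPCA.FSTKO_hFSTL3 was set against KPCA.FSTKO. Of 1310 genes with 100 UMIs in both classes, 2.75% were likewise lower in fibroblast-like and higher in myofibroblast-like cells, and 2.98% the other way around. Tgfb2 had a ratio of 2.17 in myofibroblast-like cells and 0.806 in fibroblast-like cells. Thbs1 had a ratio of 2.51 in myofibroblast-like cells, 0.509 in cancer-like cells, 0.522 in fibroblast-like cells and 0.695 in macrophage-like cells. With 1 library per genotype the difference between the classes was not tested, and the myofibroblast-like values rest on 27 and 13 cells.

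A signal was also present in barcodes that no comparison used. The 3600 barcodes of KPCA.FSTKO_hFSTL3 with acinar markers held Thbs1 at 197 CPM, against 59.1 CPM (14 UMIs) in the 66 such barcodes of KPCA.FSTKO. The ratio was 3.34 (1.99 to 6.11), and the 2 sets were unlike. Acinar markers summed to 11387 CPM in KPCA.FSTKO_hFSTL3 and 139872 CPM in KPCA.FSTKO, at median depths of 13925.5 and 923.5 UMIs. These 3600 barcodes held between 61.2% and 79.6% of each member's UMIs in that library.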

How the results depend on the processing

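With 1 library per genotype the spread between tumors is unknown, and intervals cover counting error only. No paired analysis was possible because each genotype has 1 library and no test was made. All deposited barcodes, a mitochondrial share under 10%, a stricter gate and TMM scaling left the main results within their intervals. Of 360 alternative values of 60 levels and isoform shares, 100 moved out of their counting interval, 51 of them without the 5% of cells with most UMIs of the gene, 25 as means over cells and 15 with cells of several classes kept in. Of 454 alternative log2 ratios over 71 results, 396 stayed within the interval, 57 moved and 1 reversed: Ltbp1 in myofibroblast-like over fibroblast-like cells of KPCA.FSTKO was -1.62, and 0.24 as a mean over cells. With cells of several classes kept in, the log2 ratio of stromal-like to cancer-like cells was 4.07 for Tgfb2, -1.90 for Ltbp1 and 2.24 for Thbs1, that of macrophage-like to cancer-like cells was 4.36 for Thbs1, and the library ratio in stromal-like cells was 0.19 for Tgfb2 and -3.45 for Ltbp1. Without the 5% of cells with most UMIs of the gene, the stromal-like ratios were 4.97 for Tgfb2, -3.57 for Ltbp1 and 2.63 for Thbs1, and the macrophage-like ratios 1.15 for Tgfb1 and 4.95 for Thbs1. As means over cells they were 4.02, -2.51 and 2.14, with 4.03 for Thbs1 in macrophage-like cells and -0.85 for Ltbp4 between libraries in cancer-like cells, no longer past 2 times. Without the 1 cell of each library with most Ltbp2 UMIs, chosen after seeing the data, the library log2 ratio of Ltbp2 in stromal-like cells was 0.85 against 1.30. The Tgfb2 share of stromal-like isoform UMIs was 65.8% with cells of several classes and 65.6% as a mean over cells, against 68.6%. The count of genes higher in KPCA.FSTKO_hFSTL3 went from 408 to 902 with at least 20 UMIs and to 1400 with a ratio of at least 1.5 in cancer-like cells, from 132 to 427 and 593 in stromal-like cells, and from 154 to 498 and 705 in macrophage-like cells. The count of lower genes went from 965 to 1919 and 1903, from 211 to 741 and 593, and from 152 to 674 and 393. The settings that admit fewer UMIs or smaller ratios pass more genes by construction, and for the other shifts the cause was not tested.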
